A study of Mus musculus with 2 samples.

Results

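Fbxo32 and Trim63 high myonuclei are the muscle nuclei in which the transcripts of 2 ubiquitin ligase genes, Fbxo32 (Atrogin-1) and Trim63 (MuRF1), together make up an unusually large share of the RNA. They were selected on those 2 genes: a nucleus had at least 10 UMIs of the pair, and these were at least 0.7% of its UMIs. A UMI (unique molecular identifier) marks 1 captured transcript. Among 7318 nuclei that passed the filters, of 7857 deposited barcodes, 180 were members. The Ctrl library held 169 of them and the cKO library held 11. Each library's members were compared with nuclei of the same library in which the pair made up less than 0.3% of the UMIs, 2255 in Ctrl and 3581 in cKO, referred to as comparators. The levels of Fbxo32 and Trim63 chose the members, so these levels are a description and support nothing.

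The nuclei came from GP muscle, the gastrocnemius and plantaris of the calf, of B6C3F1 mice aged 5 months, by single-nucleus RNA-Seq. Ctrl mice were Net39 fl/fl without Cre. The cKO mice were HSACreERT2;Net39 fl/fl, in which the HSA (skeletal actin) promoter drives a tamoxifen-inducible Cre in muscle fibers, and loxP sites flank the first exon of Net39. Both groups carried the floxed alleles and were sampled 3 months after tamoxifen. Net39, called Plpp7 in the files, encodes a nuclear envelope protein of muscle. The protocol gives 3 muscles pooled per group while each sample is titled as 1 mouse, so the number of animals behind a library is not settled. Each group gave 1 library, so no value has a replicate and no test between groups was possible. Intervals are 95% exact intervals and cover counting error only, since nuclei of 1 library are not replicates and differences between animals, pools and libraries cannot be seen in them.

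Both ligases are classic markers of muscle wasting. They attach ubiquitin to muscle proteins, which marks the proteins for breakdown by the proteasome, and their genes are turned on when muscle is denervated, fasted or exposed to glucocorticoids. FoxO transcription factors activate both genes when insulin and Akt signaling is low, and Trim63 is also a target of the glucocorticoid receptor. In a muscle fiber many nuclei share 1 cytoplasm, so a nuclear transcript count shows which nuclei transcribe a gene rather than how much protein the fiber holds.

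The promoter of Trim63 is shown because it holds letters of the motifs of both factors just named. Promoters here are RefSeq windows of 300 bases on GRCm38.p6, from 250 bases before an annotated start to 50 after it. A gene can have more than 1 such start. Capitals mark the FoxO core letters GTAAACA and the glucocorticoid receptor core letters AGAACA, each searched on both strands. The Trim63 window lies at chr4:134314870-134315169 on the plus strand. A window of Il1r1, a gene taken up below, lies at chr1:40266336-40266635 on the plus strand and is shown for comparison. It lies inside the gene (chr1:40225080-40317257), so its start is not the gene's first annotated start.
Trim63: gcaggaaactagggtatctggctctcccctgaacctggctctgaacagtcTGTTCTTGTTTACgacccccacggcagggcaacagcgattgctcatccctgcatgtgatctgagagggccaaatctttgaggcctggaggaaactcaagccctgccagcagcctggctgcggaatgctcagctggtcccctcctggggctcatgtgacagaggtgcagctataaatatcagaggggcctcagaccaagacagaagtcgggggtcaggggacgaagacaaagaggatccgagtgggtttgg
Il1r1: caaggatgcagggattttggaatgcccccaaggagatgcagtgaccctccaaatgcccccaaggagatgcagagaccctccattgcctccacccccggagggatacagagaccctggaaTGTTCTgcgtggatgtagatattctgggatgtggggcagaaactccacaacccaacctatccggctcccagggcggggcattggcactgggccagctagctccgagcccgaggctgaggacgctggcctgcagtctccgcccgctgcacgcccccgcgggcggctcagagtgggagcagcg
In Trim63 both sets of letters were on the other strand and touched each other, the receptor core beginning 200 bases before the start and the FoxO core 194 bases before it. The FoxO core occurred in 3.65% of all 32817 promoter windows and the receptor core in 19.0%. The 2 side by side in this order occurred in 1 window, that of Trim63. Of 16 genes that stood out with the pair in Ctrl (named below), 11 had a window, Trim63 included, and among these the FoxO core was found for 1 gene, Trim63, and the receptor core for 2, Trim63 and Il1r1. The 11 genes had 15 windows in all, so some genes were searched in more than 1. No windows were found for Fbxo32, Tmem100, Bace1, 9030617O03Rik and Slc2a3. A match of letters is a description and not a binding site.

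Before the results, the libraries were compared. Barcodes held a median of 2106 UMIs in Ctrl and 1662.5 in cKO, Malat1, an abundant nuclear RNA, took 25.4% and 30.3% of all UMIs, and 5 barcodes occurred in both libraries, none of which was a member. Levels are given as CPM, a gene's UMIs scaled to the same total in every group. Plpp7 was at 48.95 CPM in Ctrl comparators and 41.1 in cKO comparators (ratio 0.84, interval 0.71 to 0.99). This assay counts the 3′ end and does not show the deleted first exon. The paper reports lower Net39 mRNA in cKO muscle by bulk RNA-Seq and less protein by Western blot. Why Plpp7 UMIs differed so little here was not tested, and they are not used as a check of the genotype. At least 1 UMI of Ttn, Neb, Dmd and other genes that define myonuclei was found in all 169 Ctrl and all 11 cKO members. The summed level of these genes was 56223 CPM in Ctrl members and 71891 in Ctrl comparators. In cKO it was 48713 and 65708. At such levels nearly any nucleus would hold 1 UMI, so holding 1 does not set the members apart. Among the Ctrl members, 2.96% were in the top 8% of doublet scores, compared with 7.14% of comparators. Most lists of other cell types were scarce in the members. In Ctrl, 11 members held a UMI of fibro-adipogenic progenitor genes, 16 of endothelial genes, 7 of immune genes and 3 of satellite cell genes. Pax7, Ptprc and Cdh5, which define satellite, immune and endothelial cells, had 0 UMIs in the Ctrl members. The filter on nuclei itself used Ptprc, 4 of the progenitor and 3 of the endothelial genes, so their scarcity is set in part by that filter, while Pax7, Cdh5 and the satellite cell list were not used by it. A UMI of Schwann cell genes was held by 6 and one of tenocyte genes by 4, and 95 and 64 held one of the smooth muscle and adipocyte lists, mostly of Abcc9 and Acsl1, which muscle fibers express too. In cKO, 4 members held a UMI of endothelial genes and 0 held one of the progenitor, immune or satellite cell lists. Not every summed level was lower in members than in comparators. In Ctrl the smooth muscle list was at 369 CPM in members and 303 in comparators, and the Schwann cell list at 15.9 and 14.5. In cKO the endothelial list was at 132 and 79.2 CPM, on 4 UMIs in members. The other lists of these cell types were lower in members in both libraries.

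The members were far scarcer in the cKO library. They made up 4.83% of Ctrl nuclei (169 of 3502, interval 4.14% to 5.59%) and 0.288% of cKO nuclei (11 of 3816, interval 0.144% to 0.515%). The difference was -4.54 percentage points, with an interval from -5.31 to -3.81. Free RNA in the droplets gives UMIs to nuclei that do not make them, so nuclei of other cell types served as background. Of 331 Ctrl nuclei set aside because they held 3 or more UMIs of 8 progenitor, endothelial and immune genes, 1 met the rule on the pair (0.302%, interval 0.00765% to 1.67%), and their median pair share was 0.0397%. Of 92 such cKO nuclei 0 met it, which allows up to 3.26% by the limit of 3 nuclei of the total used for counts of 0 (exact upper bound 3.93%). The cKO share of members lay within the interval of this background and at these numbers cannot be told apart from it, and the Ctrl share lay above it. The median depth of these other nuclei was 1951 UMIs in Ctrl and 1851.5 in cKO.

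The order of the libraries was the same at equal depth. After every nucleus was thinned to 1500 UMIs, with 724 Ctrl and 1629 cKO nuclei left out as too shallow, 6.08% of Ctrl and 0.320% of cKO nuclei reached 0.7%. The minimum of 10 UMIs removed 4 Ctrl and 7 cKO nuclei that had reached 0.7%.

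The Ctrl members were the end of a continuous tail. Over all filtered nuclei the pair's share of UMIs had a median of 0.223% in Ctrl and 0.0813% in cKO, and its 95th percentile was 0.696% and 0.328%. The middle of the distribution thus lay lower in cKO as well as its upper end. In Ctrl no dip lay between the members and the rest, and in cKO the steps on either side of the threshold held 2 to 5 nuclei each. Of nuclei with at least 10 UMIs of the pair, the 90 Ctrl nuclei just outside the threshold, at 0.6% to 0.7%, held 90.2 CPM of Tmem100 and 1191 CPM of Pcca. The 65 Ctrl members just inside it, at 0.7% to 0.8%, held 135 and 1577 CPM.

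**Figure D1:**
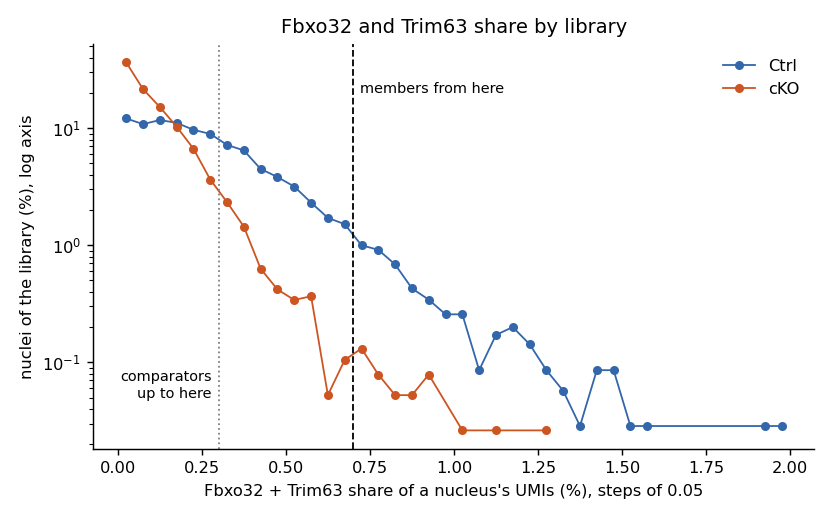
Percent of each library's nuclei (log axis) by the share of UMIs that Fbxo32 and Trim63 take up, in steps of 0.05 percentage points, with 1 point for each step that holds a nucleus. The cKO line lies below the Ctrl line from 0.2% on, and past the dashed line at 0.7% lie 173 Ctrl and 18 cKO nuclei, of which 169 and 11 also had the 10 UMIs asked of members.

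Levels below are CPM of the UMIs summed over a group of nuclei: 376660 UMIs for the Ctrl members and 30382 for the cKO members. In Ctrl, Fbxo32 was at 4115 CPM in members and 747 in comparators, and in cKO at 2765 and 425. Trim63 was at 4904 and 806 CPM in Ctrl, and at 6649 and 479 in cKO. Within Ctrl members Fbxo32 ran from 0% to 0.892% of a nucleus's UMIs (median 0.432%) and Trim63 from 0.0639% to 1.32% (median 0.467%). The balance of the pair was not the same in the 2 libraries. Trim63 exceeded Fbxo32 in 89 of 169 Ctrl members and in 11 of 11 cKO members. Fbxo32 had 0 UMIs in 3 Ctrl and 2 cKO members, and Trim63 was found in all 180.

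**Figure D2:**
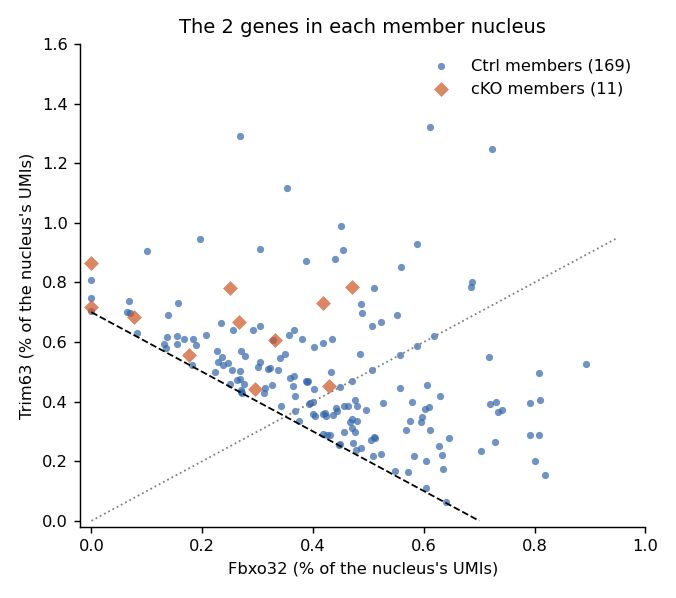
Fbxo32 (horizontal) against Trim63 (vertical) as percent of the UMIs of each member nucleus, circles for the 169 Ctrl and diamonds for the 11 cKO members. The dashed line is the 0.7% threshold and the dotted line marks equal levels; all 11 cKO members lie above the dotted line and 89 of 169 Ctrl members do.

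In Ctrl, members differed from comparators in many other genes. A gene was compared where at least 5 UMIs were expected in the smaller group at equal levels, and it was called when the 2 levels differed at least 2-fold. Of 5992 genes compared, 227 were called higher in members (3.79%) and 593 lower (9.90%), and the median ratio over all compared genes was 1.04. Counting error alone can carry a gene near the 5 expected UMIs past 2-fold, so these counts include such genes, in cKO above all. Since the members were picked from the same nuclei, these ratios describe what goes along with the pair and are not a test.

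Plekhh1 and Tmem100, given with these nuclei as markers, had the highest Ctrl ratios of the genes named here. Chrm3 and Il1r1 were followed with them. Tmem100, a small membrane protein studied mainly in endothelium and sensory neurons, was at 170 CPM in Ctrl members (64 UMIs in 38 nuclei) and 14.2 in comparators, a ratio of 12.0 (interval 8.53 to 16.8). Plekhh1, which encodes a protein with pleckstrin homology domains, was at 85.0 and 5.80 CPM (ratio 14.7, interval 8.75 to 24.5), on 32 UMIs, below the 5 expected UMIs asked of a call. Chrm3, a muscarinic acetylcholine receptor, was at 157 and 28.7 CPM (ratio 5.47, interval 3.99 to 7.40), and 14 of its 59 UMIs were in 1 nucleus. Il1r1, the receptor for interleukin 1, was at 114 and 22.0 CPM (ratio 5.19, interval 3.59 to 7.38). In the reference annotation (GRCm38) Fbxo32 lies at chr15:58175879-58214932, Trim63 at chr4:134315120-134329629, Tmem100 at chr11:90030348-90036508, Plekhh1 at chr12:79029163-79081655, Chrm3 at chr13:9875486-10360847 and Il1r1 at chr1:40225080-40317257.

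Other genes followed the pair in Ctrl as well. Igfbp5, a secreted protein that binds insulin-like growth factors, was at 385 CPM in members and 61.9 in comparators (ratio 6.22, interval 5.09 to 7.56) and was found in 75 of 169 members. Htra1, a secreted serine protease, had a ratio of 6.85 (interval 4.69 to 9.86), and Gna14, a G protein subunit, one of 5.81 (interval 4.06 to 8.18). Pcca, a subunit of the mitochondrial propionyl-CoA carboxylase, was at 1784 and 387 CPM (ratio 4.61, interval 4.22 to 5.02) and was found in 143 members. Bace1, a membrane protease, Stat5a, a transcription factor downstream of growth hormone and cytokine receptors, and Tifa, an adaptor of inflammatory signaling, had ratios of 5.08, 5.41 and 4.99. Slc2a3, a glucose transporter, Slc25a30, a mitochondrial carrier, and the protein-coding gene 9030617O03Rik had ratios of 4.27, 4.28 and 4.10. Kcnq5, a voltage-gated potassium channel, was at 3080 and 992 CPM (ratio 3.11, interval 2.91 to 3.31). In cKO members most of these genes were below the 5 expected UMIs asked of a comparison. Htra1, Stat5a, Slc2a3 and Slc25a30 had ratios of 30.7, 15.3, 16.2 and 11.4 there, on 7, 6, 5 and 3 UMIs. Bace1 and 9030617O03Rik had 4.58 and 3.57, on 4 and 2 UMIs, and Igfbp5, Gna14 and Tifa had 0 UMIs. Pcca, which was compared in cKO, had a ratio of 1.47 (interval 0.78 to 2.53). Of the 51 genes named by a rule on values or for their role, 23 overlap another annotated gene, Pcca, Kcnq5, Chrm3 and Plekhh1 among them, and whether the counts keep the strands apart was not checked.

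The genes that were lowest in Ctrl members were of several kinds. Myh1, the type IIx myosin, was at 127 and 625 CPM (ratio 0.20, interval 0.15 to 0.27). Ncam1, the neural cell adhesion molecule, had 3 UMIs in members (ratio 0.08, interval 0.02 to 0.22), Dlc1, a GTPase-activating protein, 4 (ratio 0.07, interval 0.02 to 0.17) and Angpt1, a ligand of the endothelial receptor Tek, 5 (ratio 0.10). Prkg1, a cGMP-dependent kinase, Ebf1, a transcription factor, and Slit3, a guidance ligand, had ratios of 0.15, 0.15 and 0.09. Nav3, Ccnd3 (cyclin D3) and Hmcn2 had 0 UMIs in members. Set to a floor of 3 UMIs over the group, they were at least 6.32-fold, 5.01-fold and 4.56-fold lower. The summed level of the fibro-adipogenic progenitor genes moved with these values, at 39.8 CPM in members and 116 in comparators, as did that of the endothelial genes, at 53.1 and 106. With comparators and members limited to nuclei without any UMI of the 8 genes of other cell types, the ratios were 0.12 for Dlc1, 0.24 for Ebf1 and 0.14 for Slit3.

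Fiber type differed with the pair in Ctrl. A nucleus was put in the class of the adult myosin that made up at least 60% of its UMIs of Myh7, Myh2, Myh1 and Myh4, the genes of type I, IIa, IIx and IIb fibers, if it had at least 3 such UMIs. The adult fast myosin genes are close in sequence, so some of their UMIs may be placed on the wrong gene. Myh4 was the main myosin of 122 of 129 Ctrl members with a class (94.6%, interval 89.1% to 97.8%) and of 1243 of 1780 comparators (69.8%, interval 67.6% to 72.0%). Only 3 members were in the Myh1 class, 2 in the Myh2 class and 0 in the Myh7 class, which allows up to 2.33% (exact upper bound 2.82%). Seen from the fiber types, 5.74% of 2124 Ctrl Myh4 nuclei were members, compared with 0.923% of 325 Myh1 nuclei and 1.14% of 175 Myh2 nuclei. Of the 686 nuclei with too few myosin UMIs for a class, 5.83% were members, within the interval of the Myh4 share (4.79% to 6.82%). The share of nuclei with too few myosin UMIs was 23.7% in members and 21.1% in comparators.

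Several of the differences were also present within 1 fiber type. Within Myh4 nuclei alone, where of 5015 genes compared 201 were called higher (4.01%) and 343 lower (6.84%), Ctrl members over comparators had ratios of 12.8 for Tmem100, 15.6 for Plekhh1, 4.84 for Chrm3, 4.85 for Il1r1, 5.39 for Igfbp5, 4.06 for Pcca and 3.29 for Kcnq5. Trp63, described below, was at 1.77 there, short of 2-fold. Myh4 itself was at 1.25 times the comparators' level over all members and at 1.08 times within Myh4 nuclei. Myh1 was also lower in members within Myh4 nuclei, with a ratio of 0.33 (interval 0.17 to 0.57).

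In cKO most members could not be given a fiber type. Of 11 members, 8 had too few myosin UMIs for a class (72.7%, interval 39.0% to 94.0%), while 21.7% of cKO comparators did, a difference of 51.1 percentage points (interval 17.3 to 72.4). The members' median was 1 UMI of the 4 myosins and the comparators' was 6, although the members were deeper, with a median of 2874 UMIs against 1676. Of the other 3 members, 2 were in the Myh1 class and 1 in the Myh2 class. The difference in the Myh4 share of classed nuclei, members minus comparators, was -54.9 points with an interval from -56.7 to 15.9, which includes 0. Of 1632 cKO nuclei with Myh4 as main myosin 0 were members, which allows up to 0.184% (exact upper bound 0.226%), and the minimum of 10 UMIs had removed 2 Myh4 nuclei that reached 0.7%. At a pair share of 0.5%, 23 cKO nuclei were members and 39.1% of them (interval 19.7% to 61.5%) had too few myosin UMIs.

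**Figure D3:**
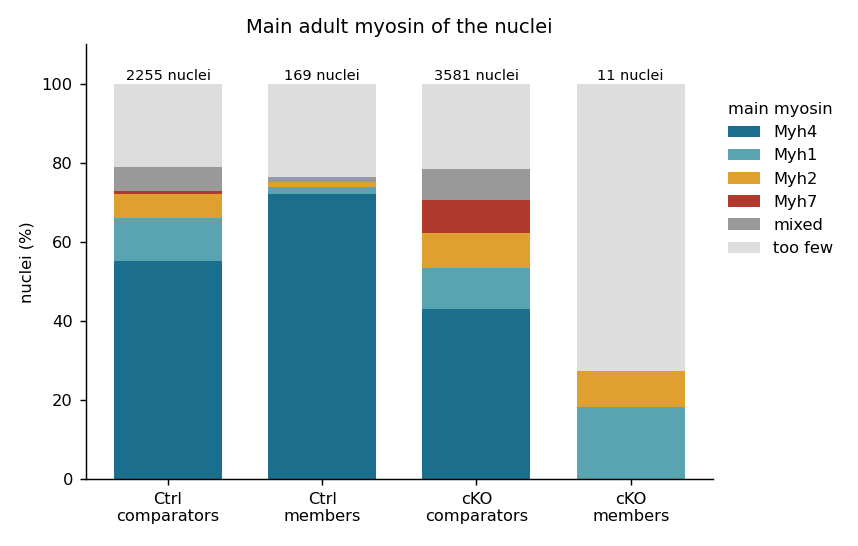
Percent of nuclei by main adult myosin in comparators and members of each library, with the number of nuclei above each bar; mixed nuclei have no myosin at 60% and nuclei with too few hold under 3 myosin UMIs. Myh4 fills most of the Ctrl members' bar (122 of 169 nuclei), and 8 of 11 cKO members have too few myosin UMIs.

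The 11 cKO members can be described singly. The nucleus with the highest pair share, 1.25%, held 18 Fbxo32 and 30 Trim63 UMIs, 1 Plekhh1 UMI and 7 Kcnq5 UMIs. The second, at 1.15%, held 12 and 21 UMIs of the pair, 27 of Kcnq5, 26 of Mdm4 and 18 of Ptprd. The fifth, at 0.932%, held 12 and 30 UMIs of the pair and 42 of Kcnq5. The 1 member of the Myh2 class held 0 Fbxo32 and 21 Trim63 UMIs, with 10 of Myh2. Over the 11 nuclei Tmem100, Plekhh1 and Il1r1 had 1 UMI each, in different nuclei, and Chrm3 had 0.

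These genes had too few UMIs in cKO members for a call. The Ctrl members' level of Tmem100, 170 CPM, lay within the cKO interval of 0.833 to 183 CPM, and that of Chrm3, 157 CPM, lay above the cKO interval of 0 to 121 CPM. Without the 1 Ctrl nucleus with 14 Chrm3 UMIs, an alternative chosen after the data were seen, it was at 120.1 CPM and lay within that interval. The sum of the 4 genes reached 2 UMIs in 39 of 169 Ctrl members (23.1%, interval 17.0% to 30.2%) and in 77 of 2255 Ctrl comparators (3.41%). In cKO it did so in 0 of 11 members, an interval of 0% to 28.5%, and in 38 of 3581 comparators (1.06%). The 2 intervals of members overlap.

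In cKO, 797 genes were compared, 53 were called higher in members (6.65%) and 144 lower (18.1%), and the median ratio was 0.935. Kcnq5 was again higher (ratio 4.35, interval 3.57 to 5.25), but 1 nucleus held 42 of its 110 UMIs and without that nucleus, an alternative chosen after the data were seen as are the next ones, the ratio was 3.16. Mdm4, an inhibitor of p53, had a ratio of 8.37, and 1 nucleus held 26 of its 48 UMIs (4.24 without it). Ptprd, a receptor tyrosine phosphatase, had a ratio of 5.09, and 1 nucleus held 18 of its 38 UMIs (2.96 without it). Myh4 had the lowest upper bound, with 4 UMIs in members and a ratio of 0.07 (interval 0.02 to 0.17), and at a pair share of 0.5% the ratio was 0.575 (interval 0.454 to 0.718). Ablim1, an actin-binding protein, had 1 UMI (ratio 0.05), Wbscr17, a glycosyltransferase, and Picalm, a clathrin adaptor, had 0, and mt-Co3, of the mitochondrial genome, had a ratio of 0.23 (interval 0.11 to 0.42). At a pair share of 0.5%, Ablim1 was at 1.18 (interval 0.874 to 1.57) and Wbscr17 at 1.05 (interval 0.666 to 1.58), on the other side of 1, Picalm was at 0.352 (interval 0.141 to 0.726) and mt-Co3 at 0.523 (interval 0.389 to 0.688).

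Some genes were called in the same direction in both libraries. All 797 genes were compared in both. Of 17 called higher in Ctrl members, 12 were called higher in cKO members (70.6% of the Ctrl genes and 22.6% of the 53 cKO genes). Without the pair they were 10 of 15 and 10 of 51, or 66.7% and 19.6%. Of the 53 genes called higher in cKO members, 10 had a ratio below 1 in Ctrl, and of the 144 called lower 42 had one above 1. Besides the pair, which the rule fixes, the genes called higher in both were Kcnq5, Musk, Foxo1, Hdac4, Mef2a, Trp63, Enox2, Zmiz1, Pvt1 and E130308A19Rik. Foxo1, a FoxO factor, was at 1243 CPM in Ctrl members and 483 in comparators (ratio 2.57, interval 2.33 to 2.84), and in cKO had a ratio of 3.44 (interval 2.17 to 5.18). Hdac4, a deacetylase that rises in denervated muscle, had ratios of 2.54 and 2.97. Musk, the muscle-specific kinase that organizes the neuromuscular junction, had 2.98 and 2.36. Trp63, a p53 relative, had 2.08 (interval 1.85 to 2.34) and 2.53 (interval 1.86 to 3.36). Of 55 genes called lower in Ctrl members, 25 were called lower in cKO members (45.5% of the Ctrl and 17.4% of the cKO genes), among them Myh1, Myl1, Flnc, Myot, Lama2 and 5 genes of the mitochondrial genome. Myh1 had 9 UMIs in the cKO members, and its direction turned in the 184 cKO nuclei with the highest pair share, taken up below, at a ratio of 1.43 (lower bound 1.28). There Myl1 (0.999), Flnc (1.12) and Myot (1.05) had intervals that include 1, and Lama2 was at 0.426 (upper bound 0.586). The mitochondrial share of a nucleus's UMIs, which can mark carried-over cytoplasm, had a median of 0.156% in Ctrl members and 0.248% in comparators, and was likewise lower in cKO members, at 0.152%, than in cKO comparators. Its part in these values was not tested.

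**Figure D4:**
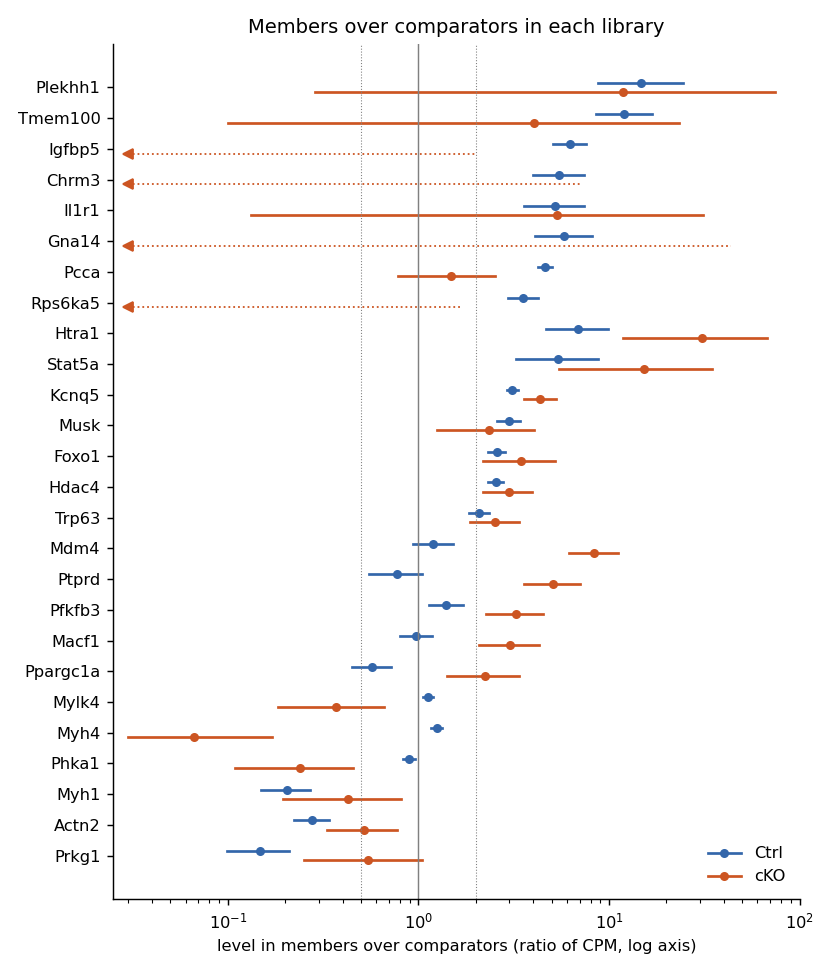
Ratio of the level in members over comparators (log axis) for 26 genes, blue for Ctrl and orange for cKO, with 95% exact intervals; an arrow at the left edge marks a gene with 0 UMIs in members and reaches to its upper bound, the lower bound of Myh4 is cut off at that edge, and dotted vertical lines mark 2-fold. Kcnq5, Musk, Foxo1, Hdac4 and Trp63 lie to the right of 1 in both libraries, whereas Myh4 is at 1.25 in Ctrl and 0.07 in cKO.

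Because few cKO nuclei met the rule, the 184 cKO nuclei that ranked highest by the pair's share, the same 4.83% of nuclei as in Ctrl, were also compared with the cKO comparators, an alternative chosen after the data were seen. Their pair share began at 0.329% and had a median of 0.397%, while the lowest Ctrl member was at 0.7%. They include the 11 cKO members. Kcnq5 (ratio 1.57, interval 1.43 to 1.73), Foxo1 (1.74, interval 1.44 to 2.07), Hdac4 (1.65, interval 1.47 to 1.86), Trp63 (1.38, interval 1.23 to 1.56) and Htra1 (4.24, interval 2.00 to 8.17) were higher in them. The Htra1 value rests on 11 UMIs in 5 nuclei, 7 of them in 2 of the members. Igfbp5 (0.77, interval 0.43 to 1.26), Pcca (1.13, interval 0.92 to 1.36), Musk (1.02, interval 0.78 to 1.31) and Tmem100 (0.71, interval 0.08 to 2.67) had intervals that include 1. Gna14 had 0 UMIs in these 184 nuclei, with an upper bound of 3.82 on its ratio. Myh4 was the main myosin of 54.6% of the 130 with a class (interval 45.7% to 63.4%), close to the 54.9% of cKO comparators.

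The libraries were also compared at a matched pair share. At a pair share of 0.3% to 0.7%, below the threshold for members, the Ctrl library had 1074 nuclei and the cKO library 217, with Trim63 at 2303 and 2352 CPM and Fbxo32 at 2027 and 1624. There Tmem100 was at 39.4 CPM in Ctrl and 5.11 in cKO (ratio 0.130, interval 0.0155 to 0.479, 2 UMIs in cKO). Il1r1 was at 33.0 and 2.55 (ratio 0.0774, interval 0.00194 to 0.442, 1 UMI in cKO) and Chrm3 at 36.0 and 7.66 (ratio 0.213, interval 0.0432 to 0.639, 3 UMIs in cKO). Igfbp5 was 2.52-fold, Pcca 2.18-fold, Musk 2.39-fold and Foxo1 2.17-fold lower. Hdac4 was at 807 and 753 CPM (ratio 0.93, interval 0.82 to 1.05) and Trp63 was 1.70 times the Ctrl level in cKO. Among comparators the cKO over Ctrl ratios of these genes were 0.577 for Tmem100, 0.282 for Il1r1, 0.603 for Chrm3, 0.975 for Igfbp5, 0.749 for Pcca, 0.792 for Musk, 0.456 for Foxo1, 0.955 for Hdac4 and 1.55 for Trp63. Foxo1 and Trp63 thus differed by about as much where the pair was low. The comparators' ratios of Il1r1, Chrm3 and Hdac4 also lay within the intervals given above for the matched pair share. The fiber types differed here too, with Myh4 as main myosin in 83.7% of classed Ctrl and 54.5% of classed cKO nuclei; the part of fiber type in these differences was not tested.

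Along the pair share, in bins that have no minimum of UMIs, several Ctrl levels were higher in each higher bin. From below 0.1% to 1% to 1.5%, Tmem100 went from 8.32 to 288 CPM, Pcca from 330 to 2108, Kcnq5 from 970 to 3901 and Foxo1 from 425 to 1597. Musk was at 230 and 229 in the 2 lowest bins and at 916 at 1% to 1.5%, while Myh1 went from 791 to 26.2. In cKO, Myh1 was instead at 645, 769 and 1063 CPM in the 3 lowest bins and at 361 in the next, on 10 UMIs. The 4 Ctrl nuclei above 1.5% had wide intervals and held 15 of the 59 Chrm3 UMIs of members. In cKO, Pcca stayed between 271 and 433 CPM over the 5 filled bins, and Kcnq5 went from 766 to 3735 CPM, the last bins resting on 15 and 3 nuclei.

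**Figure D5:**
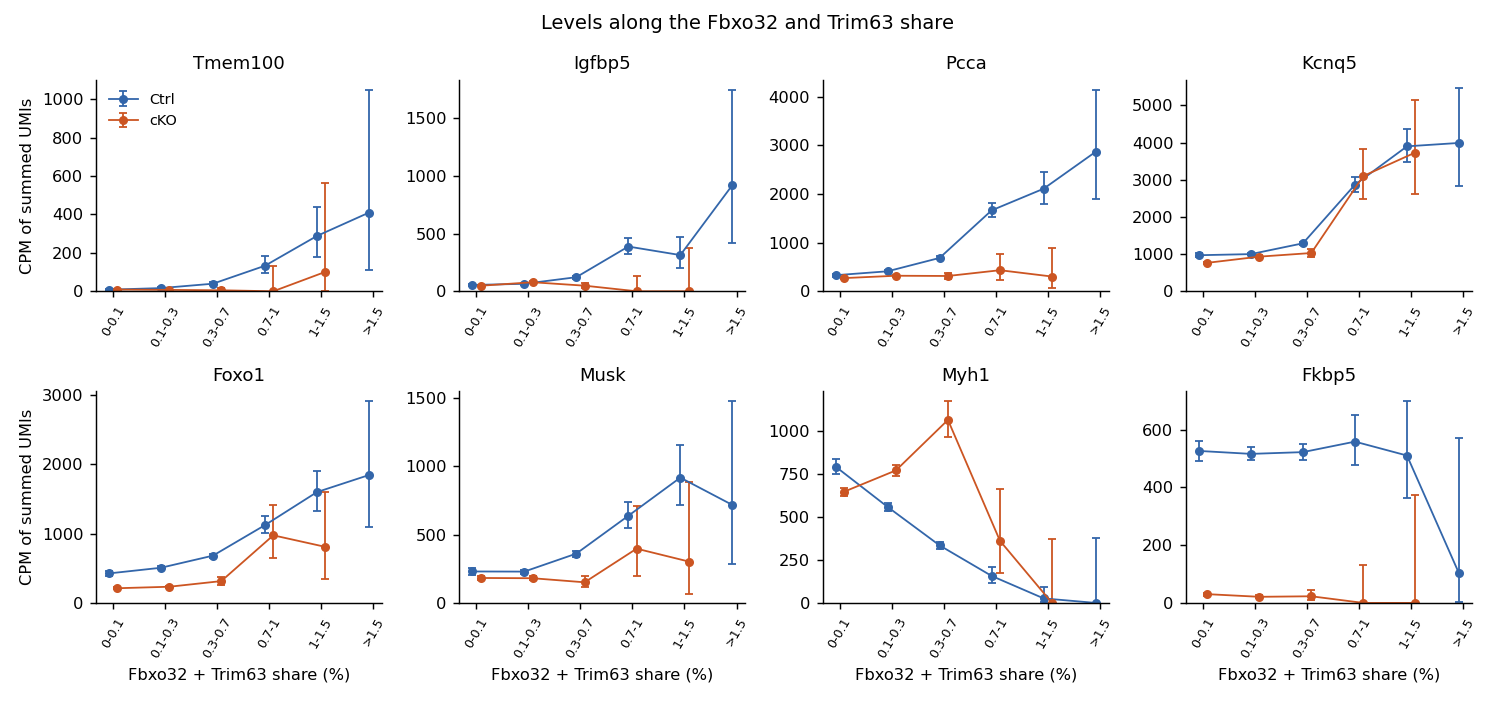
CPM of summed UMIs (vertical, each panel with its own scale from 0) for 8 genes in bins of the Fbxo32 and Trim63 share (horizontal), blue for Ctrl and orange for cKO, with 95% exact Poisson intervals. In Ctrl the first 6 genes are higher and Myh1 lower in every bin above 0.7% than in every bin below it, Pcca in cKO stays at 433 CPM or less, and Fkbp5 in cKO is at 30.4 CPM or less in every bin that holds nuclei.

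Compared directly, cKO members differed from Ctrl members in 250 of 911 genes compared, 58 called higher (6.37%) and 192 lower (21.1%). The comparators' own cKO over Ctrl ratio is given beside each gene, since a difference shared by all nuclei is not particular to members. Ptprd (10.7 in members, 1.61 in comparators), Mdm4 (7.93 and 1.13), Pfkfb3, a regulator of glycolysis (4.09 and 1.77), Ndrg3 (4.05 and 0.946), Ppargc1a, the coactivator of mitochondrial genes (3.75 and 0.955), Esrrg, an estrogen-related receptor (3.68 and 1.54), Ppfibp2 (3.49 and 1.05) and Macf1, a cytoskeletal linker (3.47 and 1.12) had the highest lower bounds. Without the nucleus that held most of its UMIs, Ptprd was at 6.22, Mdm4 at 4.02, Pfkfb3 at 2.68 and Esrrg at 1.88. With the 184 top cKO nuclei in place of the 11 members, the ratio over Ctrl members was 1.03 for Ndrg3, 0.982 for Ppfibp2, 1.46 for Macf1 and 1.51 for Pfkfb3, all short of 2-fold, and at a pair share of 0.5% it was 1.82 for Pfkfb3.

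Among the lowest was Fkbp5, a glucocorticoid-induced chaperone, with 204 UMIs in Ctrl members and 0 in cKO members, at least 5.48-fold lower. It was also low in the cKO comparators, at 26.6 CPM against 519 (ratio 0.05). Myh4 had a ratio of 0.05 in members (interval 0.01 to 0.14) and 0.995 in comparators. The members' ratio was 0.475 (interval 0.374 to 0.595) with cKO nuclei taken from a pair share of 0.5% and 0.641 (interval 0.576 to 0.713) with the 184 top cKO nuclei. Mylk4, a myosin light chain kinase, was at 0.14 and 0.42, and Phka1, a subunit of phosphorylase kinase, at 0.16 and 0.58. Rps6ka5, a stress-activated kinase, Igfbp5, Picalm and Gm12300, a noncoding gene antisense to Myh1 whose UMIs may not be told apart from that gene's, had 0 UMIs in cKO members. They were at least 4.03-fold, 3.90-fold, 3.87-fold and 3.95-fold lower, while the comparators' ratios were 0.64, 0.98, 0.80 and 0.48. With the 184 top cKO nuclei, Picalm was at 0.674 and Phka1 at 0.646, both short of 2-fold. Most cKO members had too few myosin UMIs and most Ctrl members were Myh4 nuclei. Against the 40 Ctrl members with too few myosin UMIs, a comparison added after the data were seen, Mdm4 had a ratio of 7.14, Ptprd 4.99, Ppargc1a 3.21 and Myh4 0.22.

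Ctrl members were not all alike. Those with too few myosin UMIs were also shallower, with a median of 1561.5 UMIs against 2156.5 in the Myh4 members, and the part of depth was not tested. The 40 with too few myosin UMIs had higher Chrm3 than the 122 Myh4 members (457 and 96.4 CPM, ratio 4.74, interval 2.75 to 8.21), higher Il1r1 (266 and 86.1, ratio 3.09, interval 1.59 to 5.89), higher Foxo1 (2006 and 1098, ratio 1.83, interval 1.48 to 2.24) and higher Trp63 (1342 and 761, ratio 1.76, interval 1.37 to 2.26). The 31 Chrm3 UMIs of the former lay in 7 nuclei, 14 of them in 1, and without that nucleus the Chrm3 ratio was 2.68 (interval 1.38 to 5.07). Their 18 Il1r1 UMIs also lay in 7 nuclei. Among comparators too, Chrm3 (88.2 and 19.9 CPM) and Il1r1 (61.3 and 17.7 CPM) were higher in nuclei with too few myosin UMIs than in Myh4 nuclei, whereas Foxo1 (460.5 and 476 CPM) and Trp63 (348 and 429 CPM) were not. Tmem100 was at 103 and 196 CPM (ratio 0.53, interval 0.20 to 1.16) and Plekhh1 at 88.5 and 89.5. The 39 members with 2 or more UMIs of the 4 genes had a median pair share of 0.943%, compared with 0.829% in the other 130. They held more Pcca (3009 and 1357 CPM), Kcnq5 (4950 and 2428 CPM) and Musk (996 and 573 CPM). Of these 39, 28 were Myh4 nuclei and 11 had too few myosin UMIs.

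Called genes were few in the ligase, FoxO, proteasome and autophagy lists of the wasting pathway, and about as few as among all genes. Fbxo32 and Trim63 are left out of every count, and the counts are read against the 3.79% called higher and 9.90% called lower over all genes in Ctrl. Of 22 compared ubiquitin ligases and partners of muscle wasting, 0 were called higher and 2 lower (Smurf1, ratio 0.41, and Uba1, on 2 UMIs), with a median of 1.08. Among 9 FoxO genes 1 was called higher, Foxo1, and Foxo3 had a ratio of 1.09 (interval 0.82 to 1.44). Of 25 proteasome subunits, 1 was called higher (Psma4, ratio 2.26), with a median of 1.30, and of 13 autophagy and lysosome genes 0 were called higher and 1 lower (Wipi1, ratio 0.32), with a median of 1.20. Among 12 glucocorticoid-responsive genes, Sgk1, a kinase, was called higher (ratio 2.28, interval 1.88 to 2.75), whereas Fkbp5 was at 1.04 (interval 0.90 to 1.20) and Zbtb16 at 0.59 (interval 0.55 to 0.64). Of the insulin and IGF signaling list, Irs1, the insulin receptor substrate, was called lower (ratio 0.28, interval 0.17 to 0.43).

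Of 13 genes compared in the myostatin, activin and BMP signaling list 2 were called higher and 2 lower, with a median of 1.10. Of its receptors, Acvr2a had a ratio of 3.02 (interval 2.48 to 3.65) and Tgfbr1 one of 2.24 (interval 1.90 to 2.64), while Acvr2b was called lower, on 2 UMIs (ratio 0.32, interval 0.04 to 1.20). Of 10 cytokine signaling genes 2 were called higher, Il1r1 and Il6ra, the receptor for interleukin 6 (ratio 2.54, interval 1.37 to 4.41).

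Of 11 denervation genes compared, 3 were called higher, Musk, Hdac4 and Ampd3 (an AMP deaminase, ratio 2.34, interval 1.23 to 4.13), and 3 lower, Ncam1, Chrne and Ankrd1, the last 2 on 2 UMIs each. In cKO members Ampd3 had 15 UMIs in 6 nuclei (ratio 13.2, interval 7.31 to 22.2), below the 5 expected UMIs asked of a comparison. Of 10 genes of nuclei described as remodeling, 7 were called higher and 1 lower, Flnc (0.44, interval 0.33 to 0.58). This list was chosen partly on these libraries and so is not independent. Examples called higher beyond those given above were Tnfrsf23, a decoy receptor (3.67, interval 2.27 to 5.72), and Myl12a (2.08, interval 0.96 to 4.03). Of 9 genes of the p53 and DNA damage list, 4 were called higher in Ctrl: Trp53 (2.36, interval 1.33 to 3.95), Trp63, Phlda3 (2.44, interval 1.25 to 4.40) and Eda2r (2.16, interval 1.44 to 3.16). Within Myh4 nuclei, an alternative chosen after the data were seen, 1 of 7 compared genes of the p53 list was called higher and 0 lower. Of 8 denervation genes 2 were called higher and 1 lower there, and of 8 remodeling genes 4 higher and 2 lower. Over all genes 4.01% were called higher there and 6.84% lower. Atf3, a stress-induced factor, had a ratio of 0.996, with its 8 UMIs in 1 Ctrl member.

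Many genes of oxidative and slow fibers were lower in Ctrl members. Of 17 mitochondrial and fat oxidation regulators, 9 were called lower in Ctrl members and 0 higher, with a median of 0.445. They included Lpl, lipoprotein lipase (0.23, interval 0.10 to 0.46), Ppara, a nuclear receptor that turns on fat oxidation (0.34, interval 0.20 to 0.54), Ppargc1b (0.36, interval 0.22 to 0.56) and Esrrg (0.43, interval 0.37 to 0.50). In cKO members, 5 of that list were compared, 1 was called higher, Ppargc1a, and 0 lower. Of 7 slow fiber genes 6 were called lower in Ctrl. Within Myh4 nuclei, where 6.84% of all genes were called lower, 6 of 15 compared genes of the oxidation list were and 0 of 2 slow fiber genes. Of 8 myotendinous junction genes 7 were called lower, with Col22a1 at 0.13 (interval 0.03 to 0.40) and Lama2, a laminin chain, at 0.33 (interval 0.26 to 0.42), and within Myh4 nuclei 4 of 6 were. Of 18 sarcomere scaffold genes 5 were called lower, with Actn2, an actin cross-linker, at 0.28 (interval 0.22 to 0.34), Mybpc1 at 0.34 (interval 0.28 to 0.39) and Ttn at 0.77. Of 15 fast fiber genes 0 were called higher and 2 lower, and of 20 glycolysis and glycogen genes 0 and 3.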

How the data were processed

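Single-nucleus RNA-Seq was analyzed for 2 libraries, Ctrl and cKO, each from GP muscle (3 pooled muscles per the protocol) whose nuclei were sorted by flow cytometry to exclude debris. The deposited matrices hold UMI counts for 27998 genes, made by the authors with Cell Ranger 3.1.0 on mm10 with default settings per the study's methods, with no normalization; how introns were treated is not given in the sources used here, and the sources differ on the 3′ kit version. Barcodes needed 500 UMIs, at most 10% mitochondrial UMIs, and fewer than 3 UMIs over Pdgfra, Dcn, Col1a1, Col3a1, Pecam1, Flt1, Ptprb and Ptprc. Depth per library was 10410316 UMIs in Ctrl and 8446070 in cKO. The members and the 34 gene lists were chosen with earlier results of these data known.

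UMIs were summed over nuclei (Python 3.11.15, scipy 1.17.1). Levels have exact Poisson, ratios exact conditional and shares Clopper-Pearson intervals at 95%, and intervals of differences of shares combine both exact intervals. A ratio against 0 UMIs used a floor of 3 UMIs over the group. Named genes were the pair and Plekhh1, Tmem100, Chrm3 and Il1r1; in Ctrl the 15 genes with the highest lower bound and the 10 with the lowest upper bound of the members' ratio, and 5 of each in cKO; the 8 of each for cKO over Ctrl members; list genes as examples; and the 4 myosins, Trp63, Atf3, Plpp7 and Malat1. Musk, Hdac4, Mef2a, Enox2, Zmiz1, Pvt1 and E130308A19Rik were also named as genes called in both libraries, and some list genes other than a list's highest and lowest, after their values were seen. The ratio code was checked on simulated counts. Scrublet, run through scanpy 1.11.5, set a threshold that marked 0 nuclei in either library, so doublets were not removed, and leaving out the top 8% of scores was an alternative. Genes were placed with GENCODE M21, which held 27645 of the gene IDs. A result of the insulin and IGF signaling list is not reported here.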

Additional observations from a re-analysis of the deposited data

Results flagged for a closer look

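For 3 of the named genes the levels in members, relative to comparators, lay on opposite sides of 1 in the 2 libraries, with neither interval reaching 1. Only named genes compared in both libraries were searched, and these 3 had been named for extreme ratios in cKO or between libraries. With 1 library per group the difference itself was not tested. Myh4, the type IIb myosin, had a ratio of 1.25 in Ctrl (interval 1.17 to 1.33) and 0.0663 in cKO (interval 0.02 to 0.17), on 4 UMIs in the cKO members. The cKO ratio was 0.575 (interval 0.454 to 0.718) in the 23 nuclei at a pair share of 0.5% and 0.804 (interval 0.737 to 0.875) in the 184 top nuclei. Mylk4, a myosin light chain kinase, had a ratio of 1.12 in Ctrl (interval 1.05 to 1.20) and 0.367 in cKO (interval 0.18 to 0.66), but 0.990 (interval 0.885 to 1.10) in the 184 top nuclei, where the interval includes 1. Ppargc1a, a coactivator of mitochondrial genes, had a ratio of 0.569 in Ctrl (interval 0.45 to 0.72) and 2.23 in cKO (interval 1.41 to 3.36), where 1 of the 11 members held 8 of its 23 UMIs. In the 23 nuclei at 0.5% it was at 1.38 (interval 0.943 to 1.95), which includes 1, and in the 184 top nuclei at 2.60 (interval 2.30 to 2.93). Most cKO members had too few myosin UMIs for a fiber class, whereas Myh4 was the main myosin of most Ctrl members.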

How the results depend on the processing

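Each group is 1 library of pooled muscles, so no spread between animals is known and leaving out a replicate was not possible. No paired analysis was possible because each group has 1 library. A comparison within Myh4 nuclei could not be made in cKO, where 0 members were in that class. The members' share in Ctrl exceeded that in cKO under every alternative tried. At a pair share of 0.5% it was 11.0% and 0.603% (difference -10.4 points), at 1% it was 1.26% and 0.0786% (-1.18), thinned to 1500 UMIs 6.08% and 0.320% (-5.76), and thinned to 1000 UMIs 8.61% and 0.675% (-7.93). The counts of genes called depend on how many genes can be compared. In Ctrl, higher and lower, they were 136 and 336 at 1%, 62 and 135 with 20 expected UMIs, and 746 and 1989 with 1 expected UMI. The lower count alone moved to 917 without the filter on other cell types, 941 against comparators under 0.1% and 343 in Myh4 nuclei. In cKO they were 12 and 78 at 1%, 3 and 23 with 20 expected UMIs and 535 and 773 with 1. The higher count was 100 at 0.5%. Between members of the 2 libraries they were 17 and 74 at 1%, 3 and 35 with 20 expected UMIs and 549 and 905 with 1. The higher count was 113 at 0.5%. Too few myosin UMIs were held by 100% of the 3 cKO members at 1% and 39.1% of the 23 at 0.5%. At 1%, 40.9% of 44 Ctrl members held 2 UMIs of the 4 co-expressed genes. Among alternatives chosen after seeing the data, the 184 top cKO nuclei gave 108 higher and 290 lower against comparators, and 596 and 644 against Ctrl members, and Ctrl members with too few myosin UMIs gave 109 higher. Fbxo32 and Trim63, which the rule used, are left out of the next counts. In Ctrl, all 312 alternative values of the other 24 named genes kept their direction and stayed past 2-fold. In cKO 108 of 118 values stayed past it and 116 kept their direction, and between libraries 224 and 233 of 235. The values at 20 and at 1 expected UMIs repeat the main ratio, since that minimum decides only which genes are compared. Most of these genes had been named for extreme ratios in the same nuclei, so the counts are a description. In cKO, Ablim1 (1.18) and Wbscr17 (1.05) crossed 1 at a pair share of 0.5%. Between libraries Esrrg crossed at 1% (0.918) and Ppfibp2 with the 184 top cKO nuclei (0.982). The cause of these changes was not tested.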

Other observations

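In the Ctrl members the class IIa deacetylases and Mef2 factors did not move as 1 group. Mef2a had a ratio of 2.14 (interval 1.90 to 2.41) and Hdac4 one of 2.54, whereas Mef2c had 1.13, Hdac5 0.41 (interval 0.15 to 0.90) and Hdac7 0 UMIs in members. Of 12 excitation-contraction coupling genes 0 were called in either direction in Ctrl (median 0.920), and in cKO 3 of 7 were called lower, Ryr1 among them (ratio 0.49), where 18.1% of all genes compared were called lower. Of 14 circadian clock genes 0 were called higher and 1 lower, Bhlhe41 (ratio 0.30, interval 0.06 to 0.90, on 3 UMIs). Among 13 muscle nuclear envelope genes Lmnb1, a B-type lamin, was called higher (ratio 2.67, interval 1.50 to 4.50), Wfs1 lower on 1 UMI, and Plpp7 was at 0.76 (interval 0.41 to 1.30).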
